A study of Mus musculus with 2 samples.

Results

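The respiratory chain genes described here were the nuclear protein-coding genes whose GENCODE symbols name subunits of complexes I to V (Nduf, Sdha to Sdhd, Uqcr and Cyc1, Cox4 to Cox8, Atp5), the electron carrier cytochrome c (Cycs), and the complex I assembly factors that share the Nduf stem. The annotation holds 96 such genes, of which 95 were in the tables, among 21474 protein-coding genes there. The other one, a second identifier of Atp5o, was not analysed here. The cells were MEL, an immortalized mouse erythroleukemia line that resembles red cell precursors and makes hemoglobin when treated with dimethyl sulfoxide (DMSO). Both libraries held polyadenylated RNA of MEL cells after 5 days in 2% DMSO. They form 1 group of 2 biological replicates by the labels. No untreated cells were analysed here, so the values describe treated cells and show no effect of the treatment. The labels give the replicates 1 shared cell sample identifier, so the spread between them may be technical.

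The chain sits in the inner mitochondrial membrane. Complexes I and II pass electrons from NADH and succinate to ubiquinone, complex III passes them to cytochrome c, and complex IV passes them to oxygen. Complexes I, III and IV pump protons, and complex V, the ATP synthase, lets protons flow back through its membrane ring to drive its catalytic head. Several small subunits of complex IV exist as a widely expressed form and as forms known from heart and skeletal muscle, lung or testis. Red cell precursors need active mitochondria, since heme synthesis begins and ends there, and they lose the organelles as they mature.

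Replicate 1 held 26149725 estimated reads and replicate 2 held 14149299, and 3 counts, the limit that a count of 0 allows, amount to 0.115 and 0.212 CPM (reads scaled to the library's total, not to length) there, for counting error only. All 8 erythroid markers examined were at 34.7 TPM or more in each library (TPM scales reads to transcript length and to the library's total). The alpha globin gene Hba-a1 stood at 9832 TPM in replicate 1 and 18523 in replicate 2. No gene of the heart and skeletal muscle, testis germ cell, lung epithelium or fibroblast marker lists reached 1 TPM in both libraries, and of 5 macrophage markers only Cd68 did, with 3.17 and 5.66 TPM. In RNA of whole cultures, fewer cells expressing a gene and less RNA per cell cannot be told apart. Values are given as replicate 1 first and replicate 2 second, or as mean ± SD (n = 2).

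Nearly all of the chain was expressed. At least 1 TPM in both libraries was found for 88 of the 95 genes, or 92.6%, against 45.5% of all protein-coding genes. All 4 genes of complex II, all 9 of complex III, all 17 of complex V, cytochrome c and all 38 subunits of complex I passed this limit. Complexes were assigned by symbol, so the 38 include Ndufa4, now known as a subunit of complex IV, and its paralog Ndufa4l2. The 7 that did not were 6 complex IV genes and the assembly factor Ndufaf5, which had 0.88 and 2.34 TPM. The plot of TPM by complex shows that the genes at or near 0 formed a group of their own within complex IV.

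**Figure D1:**
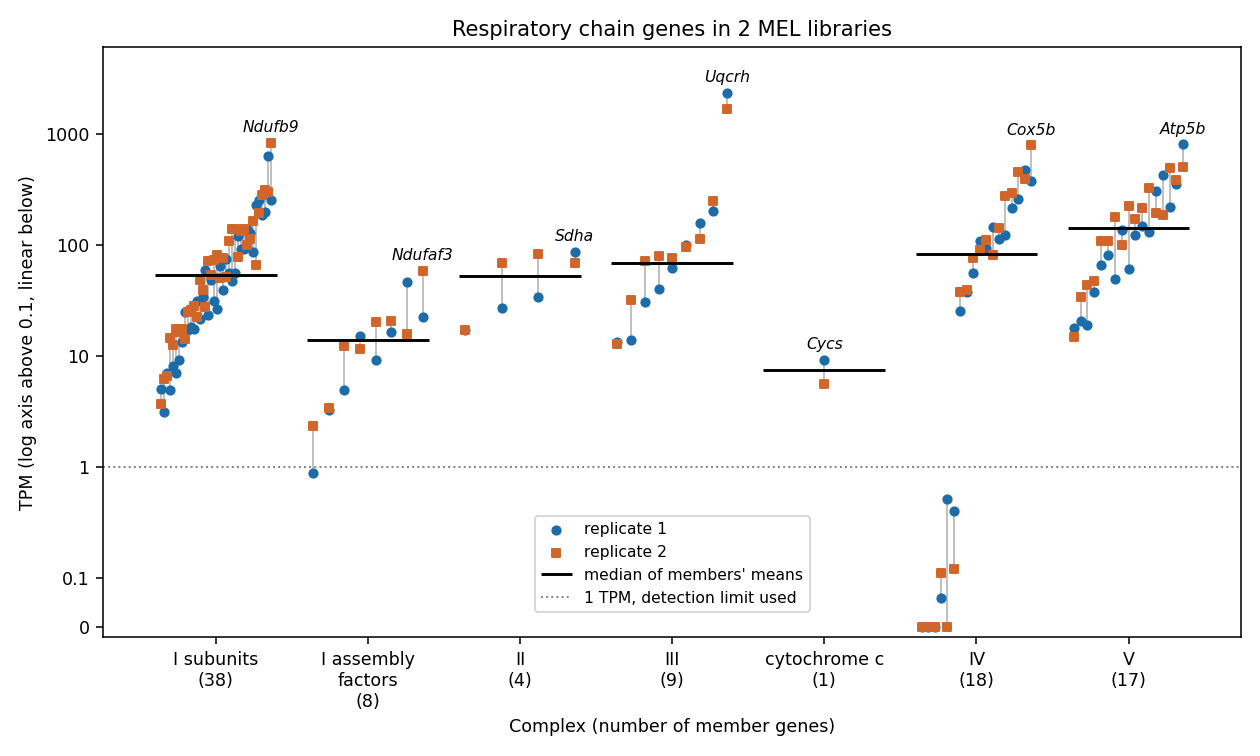
TPM of each member gene (log axis above 0.1 TPM, linear below) in replicate 1 (circles) and replicate 2 (squares), grouped by complex and ordered by mean within each; grey lines join the replicates, black bars are medians of the members' means and the dotted line is 1 TPM. Medians run from 7.41 TPM for the single cytochrome c gene to 141.6 for complex V, Uqcrh stands above all others, and the genes near 0 belong to complex IV.

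The median member stood at 57.9 TPM (46.9 in replicate 1 and 72.2 in replicate 2), beside 15.5 for protein-coding genes detected at 1 TPM, a 3.75-fold difference. These genes are short. Their median effective length was 637 bases in replicate 1, against 2123 for detected protein-coding genes, and in CPM, which does not scale by length, the median member stood at only 1.09 times the median of those genes. Together the members took 1.21% ± 0.0957 of all TPM and 0.719% ± 0.0936 of all reads. Of the 95, 39 stood at or above 87.9 TPM, the level that 10% of detected protein-coding genes exceeded, and 74 were above their median.

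By complex, the median was 141.6 TPM for complex V, 82.5 for complex IV (120.0 over the 12 of its 18 genes that were detected), 68.9 for complex III, 53.0 for complex II and 53.2 for complex I subunits. Complex I assembly factors had a median of 14.0 TPM. Complex V was above the other complexes in each library alone, with a median of 123 TPM in replicate 1 and 178 in replicate 2. Complexes III and IV changed places between libraries, since their medians were 61.9 and 75.2 in replicate 1 but 79.5 and 78.6 in replicate 2. Of the summed TPM of all members, complex I together with its assembly factors held 30.0% ± 1.99 and complex V 26.1% ± 0.0980. Complex III held 22.4% ± 4.97, complex IV 19.7% ± 2.81 and complex II 1.64% ± 0.288.

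Most of the complex III signal came from a single gene. Uqcrh, the hinge protein that helps cytochrome c bind cytochrome c1, had 2345 of the 2966 TPM summed over the complex in replicate 1 and 1688 of 2419 in replicate 2, the highest level of the 95 members in each library. Uqcrh lies on chromosome 4 (chr4:116066965-116075071, minus strand, mm10). It ranked number 40 among all protein-coding genes by mean TPM. A single protein-coding transcript, Uqcrh-202, carried 98.3% and 96.3% of its TPM. No pseudogene matched it at 95% identity, and its 2 named pseudogenes, Uqcrh-ps1 and Uqcrh-ps2, were at 0.40 TPM or less.

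The other complex III genes stood far below. Uqcrq and Uqcrb, small accessory subunits, had 204 and 250 TPM and 157 and 114 TPM. The core proteins Uqcrc2 and Uqcrc1 had 99.4 and 94.8 TPM and 40.1 and 79.5 TPM. The small subunits Uqcr10 and Uqcr11 had 61.9 and 75.9 TPM and 30.7 and 71.6 TPM. The nuclear-encoded subunits with a redox centre were the lowest of the nuclear genes of the complex by mean TPM. Cyc1, the cytochrome c1 heme protein, had 13.8 and 31.6 TPM, and Uqcrfs1, the Rieske iron-sulfur protein, had 13.5 and 12.8. Uqcrh exceeded Uqcrfs1 by 174-fold in replicate 1 and 131-fold in replicate 2. Each complex III monomer holds both proteins. Cycs, the mobile carrier that Uqcrh serves, was low by TPM as well, with 9.25 and 5.57, on a transcript of 3123 bases. By reads it had 690 and 235, against 430 and 232 for Uqcrfs1 and 385 and 498 for Cyc1. Near-identical pseudogenes of Cycs had 8.57 and 17.9 TPM, above the gene in replicate 2, so its level is uncertain.

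In complex II, which also belongs to the citric acid cycle, Sdha, the flavoprotein that oxidizes succinate, had 86.0 and 68.3 TPM. Sdhb, its iron-sulfur partner, had 27.3 and 68.2 TPM. The membrane anchors differed from each other in both libraries, with 34.0 and 82.4 TPM for Sdhd and 17.2 in each library for Sdhc. Sdhc thus had the lowest level of the 4 genes in both libraries.

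Complex I covered a wide range among its 38 subunit genes, from Ndufb2 at 4.37 ± 0.969 TPM to Ndufb9 at 537 ± 404. Its 7 nuclear core subunits, which carry the flavin and the iron-sulfur clusters, had a median of 62.9 TPM. Ndufs7, which lies near the ubiquinone site, had 46.9 and 138.8 TPM. Ndufs3 of the same arm had 92.3 and 132.3 TPM. Ndufv1, which binds NADH and the flavin, had 21.4 and 48.4 TPM, and its partner Ndufv2 had 73.9 and 51.9. Ndufs1, the largest iron-sulfur subunit, had 64.1 and 50.7 TPM. Over all transcripts, Ndufs8 was the lowest of the core with 7.05 and 17.6. Over protein-coding transcripts only, Ndufs3 was below Ndufs8 in both libraries, with 0 and 8.64 TPM.

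The highest complex I levels belonged to accessory subunits. Ndufb9 had 251 and 823 TPM, and Ndufa6, like it a member of the LYR protein family, had 632 and 298. Ndufb11 of the membrane arm had 197 and 309 TPM, and Ndufa10 had 187 and 282. The order of Ndufb9 and Ndufa6 was opposite in the 2 libraries, so neither can be placed above the other. At the low end, Ndufa4l2 had 3.11 and 6.14 TPM and Ndufb2 had 5.05 and 3.68.

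The 8 assembly factors, which build complex I without staying in it, ranged from Ndufaf5 at 1.61 ± 1.03 TPM to Ndufaf3 at 40.4 ± 25.5. Ndufaf2, an assembly chaperone, had 46.0 and 15.6 TPM, Ndufaf4 had 16.3 and 20.5, and Ndufaf6 had 9.28 and 20.3. Ndufaf7, a methyltransferase, was near the low end with 3.23 and 3.43.

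Among the 5 subunits of the catalytic head of complex V, Atp5b, the catalytic beta subunit, had 802 and 500 TPM, and Atp5a1, the alpha subunit, had 217 and 494. Atp5c1, the gamma subunit of the rotor, had 304 and 194 TPM. The small rotor subunits Atp5e and Atp5d had 131 and 328 TPM and 60.6 and 222 TPM. The alpha and beta subunits occur in equal number in the enzyme. Their levels over all transcripts differed in replicate 1 and were nearly equal in replicate 2, so that order is not settled beyond the spread. Transcripts not classed as protein coding held 60.5% and 83.7% of the TPM of Atp5a1 and 79.5% and 50.4% of that of Atp5b. Over protein-coding transcripts only, Atp5b was higher in both libraries, with 164 and 248 TPM against 85.9 and 80.7 for Atp5a1. Outside the head, Atp5k, subunit e of the membrane part, had 354 and 388 TPM, and Atp5h, subunit d of the peripheral stalk, had 430 and 186. The lowest were Atp5s, a coupling factor, with 17.9 and 14.8 TPM, and Atp5l, subunit g, with 20.5 and 33.7.

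In complex IV, the highest gene by mean TPM was Cox5b, a zinc-binding subunit on the matrix side, with 377 and 788 TPM. Cox6b1, which bridges the monomers on the outer side, had 471 and 388 TPM and was above Cox5b in replicate 1, so their order is not settled. Over protein-coding transcripts Cox5b had a mean of 126 TPM and Cox6b1 of 430. Cox6a1 had 259 and 450, and Cox4i1, the subunit through which ATP regulates the enzyme, had 214 and 295. Cox8a had 108 and 90.5 TPM, Cox7b 113 and 142, Cox7a2 55.8 and 75.5. Where a tissue form exists, these are its widely expressed counterparts.

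Of the alternative forms, those known from muscle, lung and testis were at or near 0, with 1 exception. Cox6a2 of heart and skeletal muscle had 0.40 and 0.12 TPM (6 and 1 reads), Cox7a1 of muscle had 0.52 and 0 TPM (4 and 0 reads), and Cox4i2, known from lung, had 0.06 and 0.11 TPM (1 read in each library). Cox8b of muscle, and Cox8c and Cox7b2, known from testis, had no read in either library. A count of 0 allows Cox8b up to 0.359% and 0.755% of the TPM it shares with Cox8a, and Cox7b2 up to 0.220% and 0.309% of the TPM it shares with Cox7b. Cyct, the testis cytochrome c, which the symbol rule does not take, had 0.20 and 0 TPM.

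The exception was Cox6b2, known as the testis form of Cox6b1, with 122.6 TPM in replicate 1 and 272.7 in replicate 2, from 1273 and 1640 estimated reads. It ranked number 18 of the 95 members by mean TPM. The gene lies on chromosome 7 (chr7:4751792-4753094, minus strand, mm10), far from Cox6b1 on the same chromosome (chr7:30616861-30626151, minus strand). Cox6b2 made up 20.7% of the summed TPM of both genes in replicate 1 and 41.2% in replicate 2 (30.9% ± 14.6). Cox6b1 remained above Cox6b2 in both libraries.

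Part of the Cox6b2 signal lay on a transcript that keeps an intron, Cox6b2-205, which carried 42.3% and 40.0% of the gene's TPM. Over protein-coding transcripts only, Cox6b2 made up 13.1% and 28.9% of the pair. The leading protein-coding transcript, Cox6b2-208, had 46.4 and 87.7 TPM. Of 7 testis germ cell markers, none reached 1 TPM in both libraries, and their summed level was 1.72 and 0.32 TPM. The sperm protamines Prm1 and Prm2, the transition protein Tnp1 and the sperm lactate dehydrogenase Ldhc had no reads, and the meiotic gene Sycp3 had 1.33 and 0.27 TPM.

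**Figure D2:**
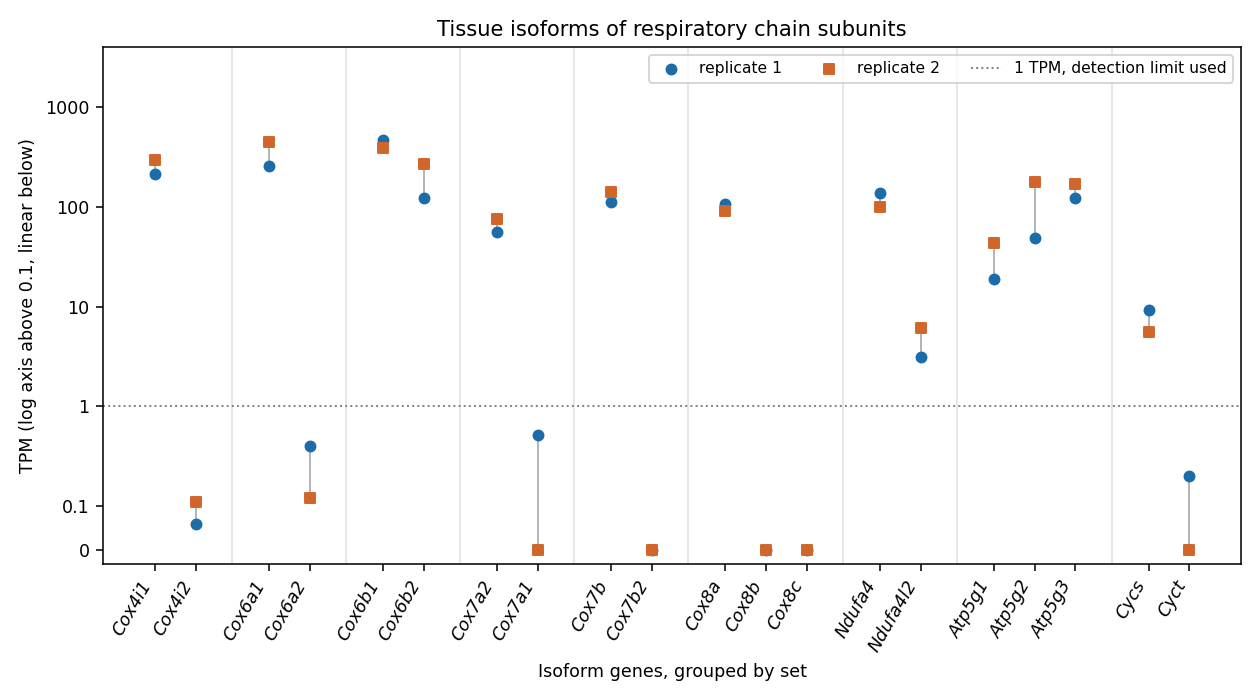
TPM (log axis above 0.1 TPM, linear below) of each gene of the isoform sets in replicate 1 (circles) and replicate 2 (squares), with sets separated by grey lines and 1 TPM dotted. Cox6b2, Ndufa4l2 and the 3 Atp5g genes lie above the line beside their widely expressed partners, and Cox4i2, Cox6a2, Cox7a1, Cox7b2, Cox8b, Cox8c and Cyct lie below it.

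Outside complex IV proper, Ndufa4l2, a paralog of Ndufa4 known for its induction by low oxygen, made up 2.20% and 5.80% of the summed TPM of both genes, while Ndufa4 had 138 and 99.8 TPM. Ndufa4 was first assigned to complex I, as its name shows, and is now known as a subunit of complex IV. The membrane ring of complex V is built from identical c subunits encoded by 3 genes. Atp5g3 had 123 and 169 TPM, Atp5g2 had 49.1 and 178, and Atp5g1 had 19.2 and 43.5. Atp5g1 was the lowest in both libraries with 10.03% and 11.1% of the set, whereas Atp5g3 and Atp5g2 changed places by TPM. By reads Atp5g3 was above Atp5g2 in both libraries, with 2044 and 1587 against 787 and 1165. In replicate 2 a single transcript of Atp5g2 held 682.5 reads. A pseudogene copy identical to Atp5g2 in the aligned letters held 682.5 as well, and neither had reads in replicate 1. The level of Atp5g2 and its order with Atp5g3 are thus uncertain.

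The promoters of Uqcrh, Cox6a1 and the pairs of Cox6b1 with Cox6b2 and Cox7a2 with Cox7a1 are shown, so that the most abundant member and expressed and nearly absent forms can be compared. RefSeq's table of start sites (GRCm38.p6) matched 77 of the 95 members. Each line gives the 250 bases before the start, 5′ to 3′ on the gene's strand, with capitals for matches, on either strand, to 7 short motifs of factors known at such genes or in red cells: GCGCATGC for NRF1, CCGGAAG for GABP and other ETS factors, AAGATGGC for YY1, TCAAGGTCA for ESRRA, TGACGTCA for the cyclic AMP response element, GGGCGG for SP1 and AGATAA for GATA factors. In order they are Uqcrh (chr4:116075071-116075320, minus strand), Cox6a1 (chr5:115348959-115349208, minus), Cox6b1 (chr7:30626115-30626364, minus), Cox6b2 (chr7:4753095-4753344, minus), Cox7a2 (chr9:79759854-79760103, minus) and Cox7a1 (chr7:30183921-30184170, plus).
Uqcrh: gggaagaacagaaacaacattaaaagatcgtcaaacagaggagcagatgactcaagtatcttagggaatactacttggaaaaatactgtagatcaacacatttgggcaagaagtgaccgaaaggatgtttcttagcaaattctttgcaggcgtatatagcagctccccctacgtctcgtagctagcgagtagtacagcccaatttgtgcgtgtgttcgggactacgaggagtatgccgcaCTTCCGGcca
Cox6a1: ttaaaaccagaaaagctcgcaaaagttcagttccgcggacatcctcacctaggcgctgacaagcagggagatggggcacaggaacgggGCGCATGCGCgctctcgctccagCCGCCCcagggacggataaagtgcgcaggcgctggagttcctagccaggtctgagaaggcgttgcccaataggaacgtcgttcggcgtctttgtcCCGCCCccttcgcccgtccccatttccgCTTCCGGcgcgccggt
Cox6b1: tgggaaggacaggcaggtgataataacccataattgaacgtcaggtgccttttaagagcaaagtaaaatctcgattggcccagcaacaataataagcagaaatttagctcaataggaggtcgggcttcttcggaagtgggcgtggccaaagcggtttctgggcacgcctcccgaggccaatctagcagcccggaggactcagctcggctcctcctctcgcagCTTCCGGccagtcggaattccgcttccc
Cox6b2: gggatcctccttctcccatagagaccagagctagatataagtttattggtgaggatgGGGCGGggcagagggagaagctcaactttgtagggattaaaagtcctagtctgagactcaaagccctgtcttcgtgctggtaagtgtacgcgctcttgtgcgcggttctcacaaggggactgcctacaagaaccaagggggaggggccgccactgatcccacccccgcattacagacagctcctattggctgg
Cox7a2: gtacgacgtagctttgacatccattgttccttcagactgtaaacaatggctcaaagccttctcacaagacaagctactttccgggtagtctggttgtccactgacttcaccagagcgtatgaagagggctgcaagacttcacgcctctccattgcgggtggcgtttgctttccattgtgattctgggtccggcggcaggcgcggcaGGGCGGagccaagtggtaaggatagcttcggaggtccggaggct
Cox7a1: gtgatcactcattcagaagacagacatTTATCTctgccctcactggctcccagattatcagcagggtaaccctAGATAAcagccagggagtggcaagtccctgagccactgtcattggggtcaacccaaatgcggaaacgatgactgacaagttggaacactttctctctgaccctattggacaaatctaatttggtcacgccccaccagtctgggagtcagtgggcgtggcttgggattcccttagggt

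Uqcrh and Cox6b1 each hold 1 ETS match close to the start, first base at -10 and -28. Cox6a1 holds an ETS match at -16, a pair of overlapping NRF1 matches at -162 and -160 on opposite strands, and SP1 matches at -139 and -44. Cox6b2 holds none of these except 1 SP1 match at -193, and Cox7a2 has 1 SP1 match at -44. Cox7a1, nearly absent here, holds 2 GATA matches, at -223 and -177, and no other of the 7 motifs.

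Over windows from 250 bases before to 50 after the start, the NRF1 motif was present in 13 of the 77 members (16.9%), in 6.78% of detected protein-coding genes with a window and in 3.05% of all genes with one. The YY1 motif was present in 11 members (14.3%), against 6.12% and 3.19%. ETS matches were as frequent in members as in detected genes, 23.4% and 23.5%, and SP1 matches were in 46.8% of members, against 71.7% of detected genes. GATA matches were in 6 members (7.79%), near the 7.46% of detected genes. Atp5g3 and Sdhd held the 2 ESRRA matches, 2.60% of members against 0.365% of detected genes, and 5 members, Cycs, Ndufa10, Ndufa11, Ndufb2 and Uqcrfs1, held the cyclic AMP element, 6.49% against 3.92%. A match is a string of letters and no measured binding.

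Promoters shared with a neighbour were frequent. For 23 of the 95 members, or 24.2%, the start of a protein-coding gene on the opposite strand, read away from it, lay within 1000 bases, compared with 11.8% of detected and 6.82% of all protein-coding genes. Uqcrh lies 198 bases from Lrrc41 with 5.69 and 15.7 TPM, and Ndufb9 lies 18 bases from Tatdn1 with 8.27 and 3.81 TPM. Ndufa7 with 23.4 and 72.2 TPM lies 10 bases from the ribosomal protein gene Rps28 with 213 and 303. In each of these pairs the levels on both sides differed in both libraries, and of the 23 neighbours, 18 were detected.

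The 2 libraries ranked the members in much the same order (Spearman rho 0.921 over 95 genes, which share each library's depth and composition). On the log2 scale with trimmed-mean (TMM) scaling, the replicate 2 over replicate 1 ratio of the 89 members that averaged 10 counts or more had a median of 0.17, against -0.05 over all 13406 genes tested, and 1 library stood against 1, so there is no replicate check. A difference of at least 2-fold was seen in 14 members toward replicate 2, or 15.7% of 89, where 13.3% of all genes passed, and in 8 members toward replicate 1, or 8.99%, where 17.9% passed. The share toward replicate 2 was close to that of all genes. With this scaling no gene of complexes III and IV passed 2-fold in either direction, and Uqcrc1 was at the limit. By TPM ratio 4 did, all toward replicate 2 (Uqcr11, Cyc1, Cox5b and Cox6b2), where 21.3% of all genes passed toward replicate 2 and 12.5% toward replicate 1, and with the GC trend removed Cox8a did, at -1.34.

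Toward replicate 2, the log2 ratio was 1.46 for Ndufb9, 1.45 for Atp5d, 1.38 for Ndufs7, 1.32 for Ndufa7, 1.28 for Ndufa11 and 1.17 for Ndufb8. All but Atp5d, the delta subunit of the ATP synthase rotor, are subunits of complex I. Toward replicate 1, it was -1.93 for Ndufa12, an accessory subunit to which the assembly chaperone Ndufaf2 is related, -1.80 for Ndufaf2, -1.33 for Ndufa6, -1.32 for Atp5h, -1.27 for Ndufc1 and -1.13 for Ndufaf4. For Ndufaf4 the direction depends on the unit, since it had 921 and 283 reads while its TPM was higher in replicate 2, a log2 ratio of 0.33 by TPM, and with the GC trend described next removed it stood at -0.14.

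GC content moved with these ratios. Across the 89 members the ratio had a Spearman rho of 0.587 with the GC content of the gene's transcripts, and across 8976 genes with at least 100 counts rho was 0.781 (genes share the libraries, so this is a description). In the 30 members with the lowest GC (39.0 to 48.8%) the median log2 ratio was -0.57, in the middle 29 it was 0.08, and in the highest 30 (54.4 to 61.4%) it was 0.94. Among all genes, split into 10 equal groups by GC, the median ran from -1.13 in the lowest to 0.98 in the highest. The trend was fitted on protein-coding genes that averaged at least 100 counts and was removed from all genes. After that, 6 members (6.74%) were at least 2-fold toward replicate 2, where 7.55% of all genes were. Toward replicate 1 there were 7 (7.87%), where 8.72% of all genes were. Of the 6, 2 were among the first 14 (Sdhd and Ndufaf5), and of the 7, 4 were among the first 8 (Ndufa12, Ndufaf2, Ndufa6 and Atp5h). Ndufb9 then stood at 0.90, Atp5d at 0.40 and Ndufs7 at 0.39. Whether GC content acts on these ratios was not tested.

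**Figure D3:**
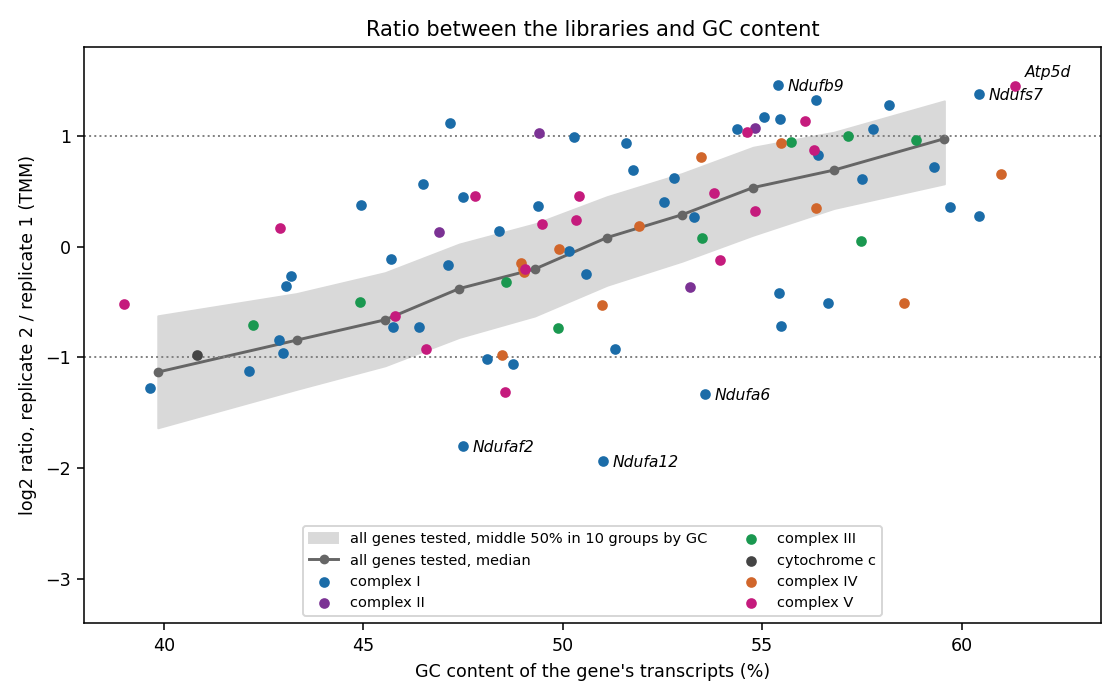
Log2 ratio of replicate 2 over replicate 1 (TMM scaling) against GC content of each gene's transcripts, for 89 members coloured by complex, with the median (line) and middle 50% (grey band) of all genes tested in 10 equal groups by GC; dotted lines mark 2-fold. The ratios of members run upward with GC content as those of all genes do, and Ndufa12, Ndufaf2 and Ndufa6 lie well below the band.

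Much of the signal of some members lay on transcripts not classed as protein coding. For 19 of the 88 detected members (21.6%), the transcript with the highest mean TPM was of such a class (11 processed transcripts, 7 with a retained intron and 1 target of nonsense-mediated decay), against 18.01% of detected protein-coding genes. Members put 22.5% and 25.4% of their summed TPM on such transcripts, and detected protein-coding genes 19.8% and 18.9%. In 15 of the 19, the leading transcript was of such a class in each library taken alone, and by share of reads in place of TPM, 13 members were led so.

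For Atp5b, shares of TPM and of reads differed. Atp5b-204, a processed transcript of 399 bases, carried 76.3% of the gene's TPM in replicate 1 and 35.95% in replicate 2, but 39.2% and 11.2% of its reads, while the full coding transcript Atp5b-201 of 1916 bases carried 55.5% and 81.1% of the reads. Over protein-coding transcripts, Atp5b had 164 and 248 TPM. For Cox5b, the 362-base Cox5b-205 carried 80.3% and 76.6% of TPM and a like share of reads, 80.4% and 76.8%. The non-coding share also exceeded 70% in both libraries for the stalk subunit gene Atp5f1 (99.1% and 92.7%, led by a decay target), Ndufs3 (100% and 93.5%), Cox7b (97.6% and 96.3%), Ndufc1 (91.9% and 91.7%), Ndufa5 (96.8% and 74.4%), Atp5h (90.6% and 76.4%) and Ndufaf6 (75.5% and 92.1%).

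The remaining genes led by such transcripts were Atp5a1, Cox6a1, Ndufa10, Cox6b2, Ndufs1, Ndufa7, Cox7c, Ndufaf4, Ndufaf1 and Ndufaf8. Ndufs1 was led by a transcript with a retained intron in replicate 1 and by a decay target in replicate 2. Whether the leading transcript was classed protein coding differed between the 2 libraries for Cox6a1, Ndufaf4, Ndufaf8 and Atp5b. The widest shifts were in Cox6a1 and Ndufaf4. Cox6a1 lay wholly on its coding transcript in replicate 1 and had 86.9% of its TPM on the intron-retaining Cox6a1-202 in replicate 2, although the level of the gene differed by a log2 ratio of only 0.66. Ndufaf4 had 98.4% of its TPM on the non-coding Ndufaf4-202 in replicate 1 and 18.2% in replicate 2. Some members outside this group shifted as well. The non-coding share was 3.07% and 53.7% for Cox4i1, 92.4% and 33.3% for Ndufs7 and 56.8% and 20.2% for Sdha. Over protein-coding transcripts Cox4i1 had 208 and 137 TPM and Sdha 37.2 and 54.5, opposite in direction to their gene levels. Exons of Ndufs1 overlap those of Eef1b2, an elongation factor gene on the opposite strand with 1845 and 3308 TPM. Exons of other members, among them Ndufaf3, Ndufb2 and Cox4i1, also overlap those of detected genes on the opposite strand. No source used here gives the strandedness of the reads, so reads of such overlapping genes may not have been told apart. The leading transcript of Uqcrc2 has no entry in the annotation used here and was left out of these counts.

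**Figure D4:**
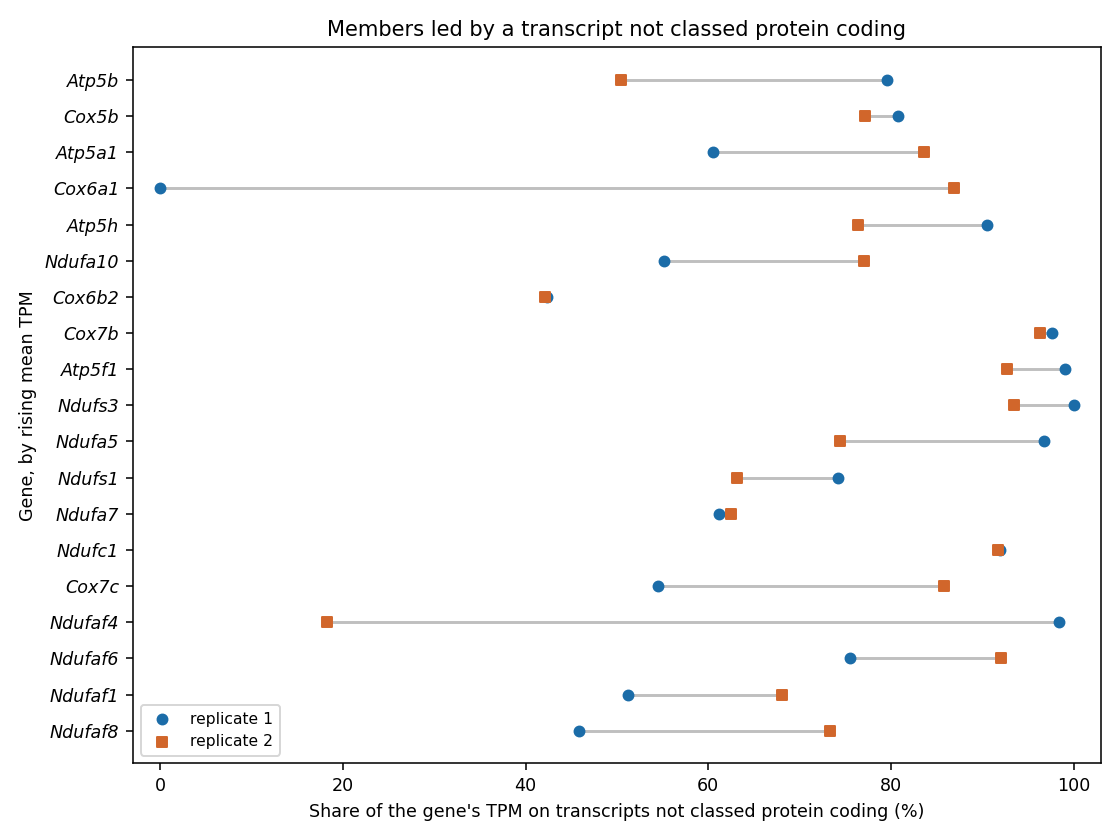
Share of each gene's TPM (percent) on transcripts not classed protein coding, in replicate 1 (circles) and replicate 2 (squares), for the 19 members led by such a transcript, ordered by mean TPM. Cox6a1 and Ndufaf4 span most of the axis between the replicates, and Ndufc1, Ndufa7, Cox7b and Cox6b2 have nearly equal shares in both.

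Near-identical pseudogenes shared the signal of other members. At 95% identity over at least 80% of their length, 39 pseudogenes matched 23 members, and their summed TPM was 2755 and 1768, beside 11427 and 12780 for the members themselves. For 6 members the copies exceeded the gene in both libraries. Gm6969, a copy of the supercomplex factor gene Cox7a2l, had 891 and 994 TPM, where Cox7a2l had 94.6 and 110.9. BC002163, a copy of Ndufs5, had 187 and 55.0 TPM, where Ndufs5 had 18.1 and 26.1. Copies of Atp5g2, Atp5l, Cox7c and Ndufb4 were also above their gene in both libraries. The split of reads between such sequences is an estimate, so the levels of these members are uncertain.

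**Figure D5:**
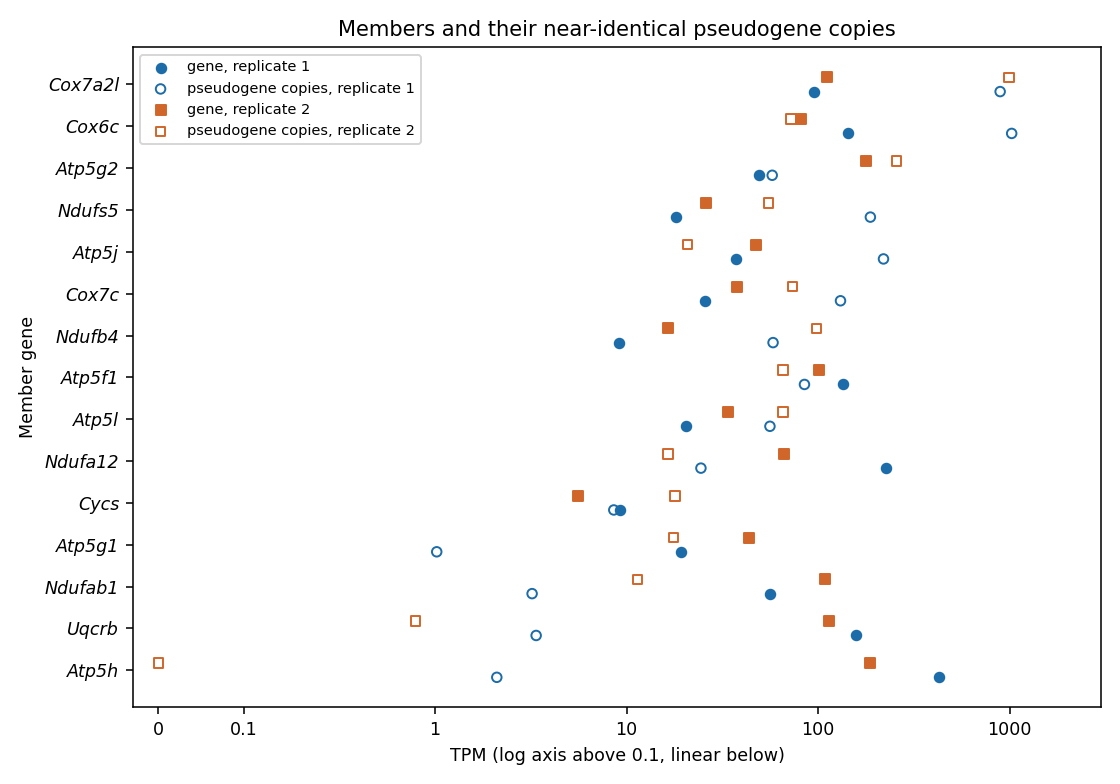
TPM (log axis above 0.1 TPM, linear below) of members (filled) and of the sum of their near-identical pseudogene copies (open) in replicate 1 (circles) and replicate 2 (squares), for the 15 members whose copies had a mean of at least 1 TPM. Copies of Cox7a2l stand near 1000 TPM in both replicates, and copies of Cox6c only in replicate 1.

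Other genes of the pathway were examined through lists. Of 35 assembly factors of the 5 complexes outside the symbol rule, 34 were detected, with a median of 10.6 TPM, and of the 34 with enough counts 1 was at least 2-fold higher in replicate 2 and 4 were lower, where 13.3% and 17.9% of all genes were. By mean TPM the highest were Cox20, a chaperone of the complex IV subunit mt-Co2, with 292 and 52.7 TPM and the copper chaperone Cox17 with 101 and 64.4, followed by Surf1, an assembly factor of complex IV, with 53.7 and 65.7. The order rests on replicate 1, since in replicate 2 Cox20 was below Surf1 and Cox17. The lowest were Sco2, which delivers copper to complex IV, with 0.20 and 0.90 TPM, and Nubpl, which delivers iron-sulfur clusters to complex I, with 2.23 and 1.65.

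Regulators of mitochondrial biogenesis were detected in 12 of 13 cases, with a median of 17.6 TPM, and of all 13, 2 were at least 2-fold higher and 1 lower in replicate 2, beside the same 13.3% and 17.9% of all genes. Gabpb2, a subunit of the factor GABP, had 41.2 and 45.7 TPM, the mitochondrial DNA factor Tfam had 44.7 and 25.1, and Yy1 had 27.7 and 35.6. Nrf1 had 16.7 and 36.8 TPM. The coactivators Ppargc1a, at 0.10 and 0.14 TPM, and Ppargc1b, at 2.66 and 3.70, were the lowest by mean, although Esrra, with 1.43 and 8.75 TPM, was below Ppargc1b in replicate 1.

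The 11 other ubiquinone-linked enzymes and factors of coupling were all detected. The highest was Atpif1, which blocks ATP hydrolysis by complex V, with 1540 and 421 TPM, above every member except Uqcrh in replicate 1. Ucp2, an inner membrane carrier, had 171 and 372 TPM and Etfa, an electron carrier of fatty acid oxidation, had 96.4 and 65.6. Dhodh of pyrimidine synthesis and Prodh of proline breakdown were lowest, with 4.95 and 4.57 TPM and 3.51 and 5.87 TPM. All 13 citric acid cycle genes were detected, with a median of 46.3 TPM. Mdh2 and Idh3g were among the highest, at 163 ± 99.1 and 155 ± 37.4 TPM, and Idh3a and Suclg2 were lowest, at 11.4 ± 0.799 and 13.2 ± 5.32. The 13 subunits encoded in mitochondrial DNA had a median of 4905 TPM, and mt-Co3 alone among them was under 1 TPM, with 0.50 and 0.94. The highest, mt-Atp8, had 108217 and 96381 TPM. How reads were assigned among these genes was not tested, so the value of mt-Co3 is not shown to be low expression.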

How the data were processed

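The authors deposited, per library, 1 gene table and 1 transcript table of polyA RNA-seq read on mm10 against GENCODE M4, per the submitters' file list. The sources used here name neither program nor aligner. The deposited values used were expected counts (unscaled estimated reads), TPM (scaled to length and library total), posterior mean TPM, and the percent of a gene's expression on each transcript, per the file headers. The deposited credibility bounds and posterior SDs, of the unit signal per the file headers, support no printed value.

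Symbols, classes and coordinates came from GENCODE M21 by Ensembl ID, with 42462 of 43346 genes matched. Another 26345 rows name no gene (0.0296% and 0.0465% of reads) and stayed out of the counts and lists. Expected counts were rounded, scaled by TMM in edgeR 4.0.16 (R 4.3.3) and given as log2 ratios with a prior count of 1. This step was tested on simulated data without a GC trend, so the test does not cover the trend seen here. Detection meant 1 TPM in both libraries. GC content was averaged over a gene's transcripts with TPM as weights. Its trend was a lowess curve (span 0.3) over protein-coding genes averaging at least 100 counts. Pseudogenes were aligned with BLAST+ 2.17.0. With 1 group of 2 libraries no test was made. Alternatives covered units, filters, scalings, including DESeq2 1.42.0 size factors, and each library alone.

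The members and lists were chosen with earlier results of these data known. Named genes were all isoform set members, members under 1 TPM in a library, the 4 highest and 2 lowest of each complex, core, head, complex II and complex III genes, the 6 largest ratios each way, members led by a non-coding transcript, and the 3 highest and 2 lowest of each list. Gm6969, BC002163, Lrrc41, Tatdn1, Rps28, Eef1b2 and Esrra were named after their values were seen. A few of these genes are not reported here.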

Additional observations from a re-analysis of the deposited data

Results flagged for a closer look

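Several pseudogenes whose symbols carry a respiratory chain stem, and which the report's members leave out because they are not classed protein coding, had signal above the limit that a count of 0 allows. Cox6c2, 97.0% identical to Cox6c over its length, had a mean of 548 TPM (1024 in replicate 1 and 72.0 in replicate 2). Ndufb4c, identical to Ndufb4 in the aligned letters, had a mean of 77.9 TPM (57.5 and 98.2). Ndufa11b had a mean of 51.2 TPM (20.5 and 81.9), and Ndufab1-ps, 99.4% identical to Ndufab1, had a mean of 6.13 TPM (0.87 and 11.4). Whether these reads came from the pseudogenes or from their parent genes was not tested.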

How the results depend on the processing

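Alternatives left 95 of 124 values that answer a comparison within the spread or within 1.5 times, and 29 moved. The 95 include values that could not move. For the members' share of TPM and the isoform shares, the spread was the SD of the same 2 libraries. Leaving out 1 library always stays within that SD, so it is no check of these shares. In CPM, not per length, the median over that of detected protein-coding genes was 1.09-fold for all members, 0.793 for complex I, 1.82 for II, 1.92 for III, 1.11 for IV and 2.69 for V, the members' share was 0.721% and the share of Ndufa4l2 7.78%. Over protein-coding transcripts only, an alternative chosen after seeing the data, complex I was at 2.00-fold, complex IV at 4.63-fold, the share of TPM at 0.914%, Cox4i2 at 0.0547% and Atp5g1 at 11.5%. With pseudogene copies added, complex IV was at 7.34-fold, complex V at 11.7-fold and the share at 1.44%. The share over nuclear protein-coding genes was 1.62%, complex I without assembly factors was at 3.44-fold, and Cox4i2 by posterior mean TPM was at 0.0945%. Leaving out 1 library gave 4.50 to 4.99-fold for complex III, 4.93 to 5.46 for IV and 8.94 to 11.2 for V. Members at least 2-fold higher in replicate 2 were 24 by TPM ratio (21.3% of all genes tested), 28 at 1.5-fold (26.01%) and 6 with the GC trend removed (7.55%), against 14, and lower ones were 5 by TPM ratio (12.5%) and 20 at 1.5-fold (30.3%), against 8. Ndufaf4 reversed to 0.33 by TPM ratio. With the shorter promoter window, 3 members held the cyclic AMP element and 2 a GATA match. The cause of these shifts was not tested. Detection stayed between 83 and 89 members. No paired analysis was possible because there is 1 group. With 1 library against 1, no difference between libraries has a replicate check.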
